A study of Mus musculus with 141 samples.

Results

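The mitosis genes are 36 genes of the G2 and M phases of the cell cycle, chosen by name from their known roles, and each symbol matched a single gene among the 46078 mouse gene rows of the counts. They were measured by single-cell RNA sequencing in 94 basophil/mast cell progenitors, called BMCP, and 47 granulocyte/monocyte progenitors, called GMP, from the bone marrow of 3 female C57BL/6 mice. BMCP were sorted as live cells that lacked lineage markers and Sca1, carried Kit, and were high for integrin beta7 and CD16/32. GMP were sorted as live cells that lacked lineage markers and Sca1, carried Kit and CD34, were high for CD16/32, and lay outside the BMCP gate. The labels name no treatment and no genotype beyond the strain, and they do not say which mouse gave which cell. Each population was therefore 1 sample, cells were not replicates, and differences are given by size with counting error only and with no test. Cells were sorted singly, so a cell is named by its population and the number in its label.

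After filtering, 89 BMCP and 41 GMP were kept, with 96129 to 2416630 reads per BMCP (median 893037) and 130191 to 3688848 per GMP (median 1309887) in nuclear-encoded genes. Levels are CPM, each gene's reads scaled to a total of 1000000 of those reads, in a cell or summed over the cells of a population, and intervals are exact 95% Poisson or Clopper-Pearson limits. Where a count was 0, the share it allows is given apart from these, as 3 counts of the total. The summed level of 7 mast cell and basophil genes (Cpa3, Gzmb, Gata2, Ms4a2, Cma1, Mcpt8 and Scin) ran from 3002 to 82540 CPM over the BMCP and from 3.68 to 9498 CPM in GMP. The summed level of 5 neutrophil progenitor genes (Mpo, Elane, Prtn3, Ctsg and Ms4a3) ran from 1.05 to 2921 CPM over the BMCP and from 543 to 101294 CPM in GMP. Nuclear-encoded reads per spike-in read were 7.53 in the median BMCP and 14.6 in the median GMP.

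A cell that has copied its DNA passes through G2 and then separates the copies in mitosis. Cyclin A2 and the B cyclins switch on the kinase CDK1, the Aurora and Polo kinases build the spindle, the checkpoint proteins hold anaphase back until every chromosome is attached, and the central spindle proteins complete cytokinesis. Most of these genes are transcribed late in the cycle, through a DNA element known as the CHR and through CCAAT boxes near their starts, by the MuvB complex with B-MYB and FOXM1 and by NF-Y, and the DREAM complex represses them in resting cells.

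The promoters of the members are described first, since the rule that chose the members did not use them. RefSeq windows from 250 bases before to 50 bases after a gene's start (assembly GRCm38.p6) were found for 30 of the 36 members, in 33 windows, and were searched on both strands. The CHR element, TTTGAA, lay in 26 of the 33 windows (78.8%), against 17.9% of all 32851 windows. CCAAT lay in 78.8% of the member windows and 37.4% of all windows, and both letters together in 69.7% and 6.95%. E2F sites, searched as TTTGGCGC, TTTCCCGC, TTTGCCGC and TTTCGCGC, lay in 1 of the 33 windows (3.03%) and in 2.26% of all windows. Birc5, Mad2l1, Nuf2 and Nusap1 held neither CHR element nor CCAAT box, and Bub1, Ccnb1 and Cenpe held CCAAT boxes alone. A match describes these letters only and shows no binding.

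The stretches below run from 140 bases before the start to 30 bases after it, 5′ to 3′ on the gene's strand, with CHR elements and CCAAT boxes in capitals. Ccnb2 (chr9:70421525-70421694, minus strand) and Cdc20 (chr4:118437314-118437483, minus strand) are shown because their levels per kilobase of exon were the highest in GMP among members with a CHR element. Ect2 (chr3:27153825-27153994, minus strand) and Ccnb1 (chr13:100786457-100786626, minus strand) are shown because their log2 ratios between the populations were the closest to 0.
Ccnb2: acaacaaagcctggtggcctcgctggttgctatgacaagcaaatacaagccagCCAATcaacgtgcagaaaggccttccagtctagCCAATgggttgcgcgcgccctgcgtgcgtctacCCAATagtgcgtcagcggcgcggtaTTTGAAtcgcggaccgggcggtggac
Cdc20: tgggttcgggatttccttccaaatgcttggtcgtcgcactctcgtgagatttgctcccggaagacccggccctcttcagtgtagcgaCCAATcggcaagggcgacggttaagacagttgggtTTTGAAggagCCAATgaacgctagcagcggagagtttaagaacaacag
Ect2: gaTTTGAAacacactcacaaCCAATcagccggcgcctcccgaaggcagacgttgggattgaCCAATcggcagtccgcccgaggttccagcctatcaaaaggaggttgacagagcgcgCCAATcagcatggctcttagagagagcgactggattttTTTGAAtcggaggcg
Ccnb1: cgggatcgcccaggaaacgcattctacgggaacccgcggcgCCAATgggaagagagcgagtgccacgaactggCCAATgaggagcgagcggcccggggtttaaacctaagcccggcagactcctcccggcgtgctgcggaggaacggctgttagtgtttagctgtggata
In the Ccnb2 stretch the CCAAT boxes begin 87, 54 and 21 bases before the start, 33 bases apart, and a CHR element begins at base 5 after it. In the Cdc20 stretch a CHR element begins 18 bases before the start, between CCAAT boxes at 53 and 8. The Ect2 stretch holds CHR elements at 138 bases before and base 16 after the start and CCAAT boxes at 120, 79 and 23. The Ccnb1 stretch holds CCAAT boxes at 99 and 67 and no CHR element.

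Setting BMCP beside GMP asks which genes set the sorted basophil and mast cell progenitors apart from granulocyte and monocyte progenitors outside their gate. Summed over the 36 genes, the level was 1224 CPM (1217 to 1232) for BMCP against 2145 CPM (2132 to 2157) in GMP. In such sums, fewer cells of a kind and less RNA per cell cannot be told apart, so the values of single cells are given beside them. Across cells the summed level ran from 1.42 through a median of 476 to 20724 CPM in BMCP, and from 34.6 through a median of 1126 to 10104 CPM in GMP. BMCP replicates 44 and 29 lay at 20724 and 18311 CPM, above every GMP, and the next BMCP, replicate 11, lay at 3674 CPM. These 2 cells held 26.8% and 24.8% of the BMCP reads of the mitosis genes, and 3.25% of all BMCP reads. Without them the BMCP level was 612 CPM (607 to 617). In GMP the reads were spread over more cells, with 22.1% in replicate 6, 12.4% in replicate 9, 8.59% in replicate 31 and 8.26% in replicate 30.

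Each gene's ratio is the log2 of its summed CPM plus 1 in BMCP over the same in GMP, a scale that understates the change of low genes. All 36 members had at least 1 CPM in either population. Over all kept cells 18 were at least 2-fold lower in BMCP, against 21% of all 14554 genes with at least 1 CPM, and 3 were at least 2-fold higher, against 25.8%. The median log2 ratio was -0.96, beside 0.038 over all genes tested, and the members ran from -4.09 for Bub1 to 1.70 for Kif23. Without BMCP replicates 44 and 29, 28 members were at least 2-fold lower (21.6% of all genes) and 1 was at least 2-fold higher (25.9%). There 33 members lay below 0 and their median was -2.87, beside a median of 0.035 over all genes tested. The median was -1.65 without replicate 44 alone, where 23 members were lower (21.4%) and 1 was higher (25.9%), and -1.65 without replicate 29 alone, where 21 were lower (21.3%) and 1 was higher (25.8%). Without GMP replicate 6 it was -0.45, with 13 members lower (20.8%) and 5 higher (26.1%).

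**Figure D1:**
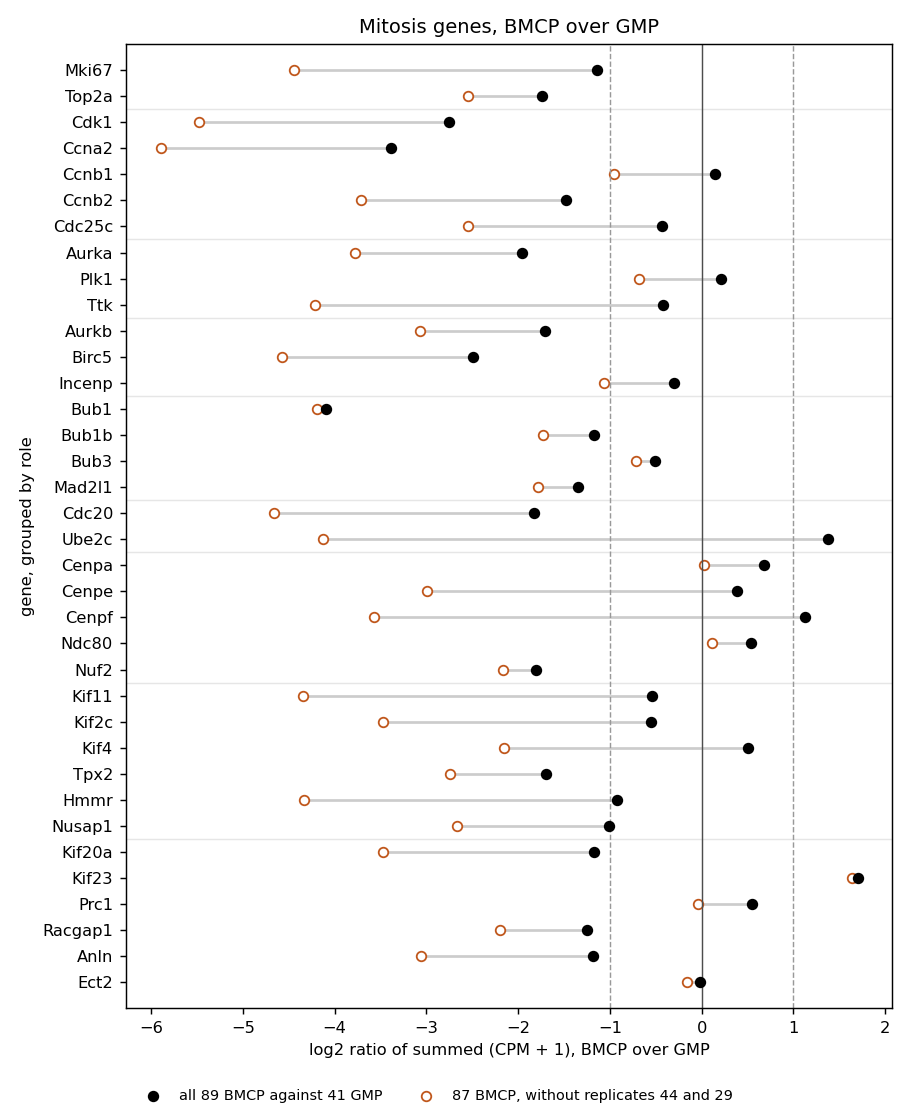
The x axis is log2 of the ratio of (CPM + 1) sums, BMCP over GMP, and the y axis the 36 mitosis genes grouped by role, with filled points for all 89 BMCP, open points for the 87 BMCP other than replicates 44 and 29, and dashed lines at a 2-fold difference. Leaving out the 2 cells moves the median from -0.96 to -2.87, while Kif23 moves from 1.70 to 1.64 and Bub1 from -4.09 to -4.19.

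Both cells are numbered under 48, and the BMCP were also read by number, 1 to 47 and 48 to 94, each against the same GMP. For numbers 1 to 47 the median log2 ratio was 0.17, with 6 members at least 2-fold lower (26.7%) and 9 at least 2-fold higher (25%). With replicates 29 and 44 taken out of numbers 1 to 47 it was -2.57, with 27 lower (27.9%) and 1 higher (24.8%). For numbers 48 to 94 it was -3.38, with 29 lower (25%) and 1 higher (24.9%). Apart from these 2 cells, most mitosis genes were thus lower in BMCP than in GMP in both sets of numbers. These 2 cells were picked as the BMCP with the highest sums of these genes, so leaving them out lowers the BMCP level by construction. Over all numbers, without the 2 highest GMP as well, the median was -2.32, with 25 of 34 tested members lower (21.4%) and 2 higher (26.2%). The labels do not describe a plate or batch behind the numbers. A scaling to spike-in reads moved the log2 ratio of every gene by -0.87 and gave 25 members lower, against 44.9% of all genes, and 0 higher, against 12.4%.

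For most members these cells set the BMCP level. Replicates 44 and 29 together held at least 50% of the BMCP reads in 23 of the 36 members, against 1.37% of all genes. They held at least 90% in 12, for which the share of all genes was not counted and can be no more than that 1.37%. Either of them was the BMCP with the most reads in 28 members, 14 each, against 2.75% of all genes for both. A single BMCP held at least 50% of the reads in 17 members (21.8% of all genes), and a single GMP did in 6 (23%). Replicate 6 was the GMP with the most reads in 18 members, against 8.31% of all genes. This cell too was named for its high sum of these genes, so that count follows in part from the choice. Replicate 6 held 4.70% of all GMP reads, a depth of 2606786 reads.

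**Figure D2:**
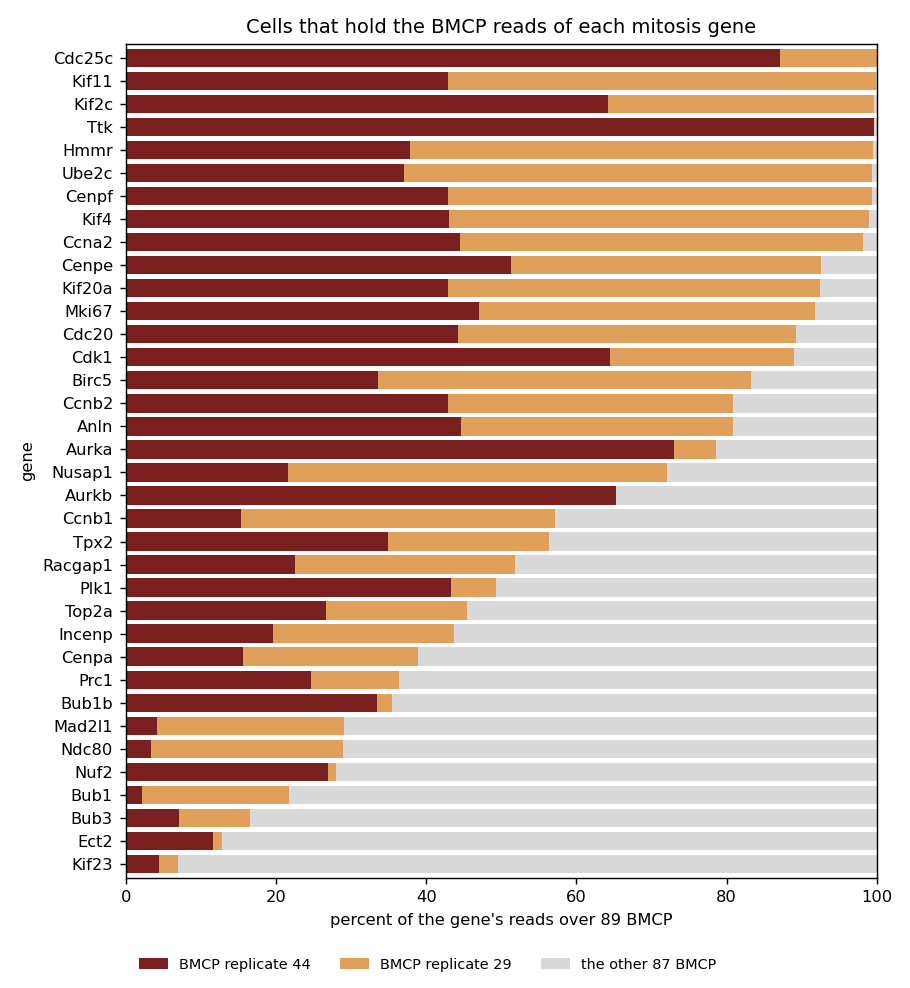
The x axis is the percent of a gene's reads over all 89 BMCP and the y axis the mitosis genes, with bars split into replicate 44, replicate 29 and the other 87 BMCP. The 2 cells hold all reads of Cdc25c and 6.95% of those of Kif23.

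To compare cells at 1 depth, each was thinned to 200000 reads, which left 86 BMCP and 40 GMP, and a gene was called detected, found or carried in a cell at 10 thinned reads or more. Fewer mitosis genes were detected per BMCP than per GMP, with medians of 2 and 5. At least 12 of the 36 were detected in 3 of 86 BMCP (3.49%, 0.725 to 9.86) and in 9 of 40 GMP (22.5%, 10.8 to 38.5). Without thinning these were 3 of 89 BMCP and 12 of 41 GMP. This limit cuts a range and does not mark a cell type, and 1 BMCP and 6 GMP lay near it, at 10 to 14 genes. At 6 or more genes there were 5 of 86 BMCP (5.81%) and 18 of 40 GMP (45%). The share of cells with a gene was smaller in BMCP than in GMP for 34 of the 36 members, against 61.6% of all genes tested, and larger for Kif23 and Kif20a, against 32.1%.

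**Figure D3:**
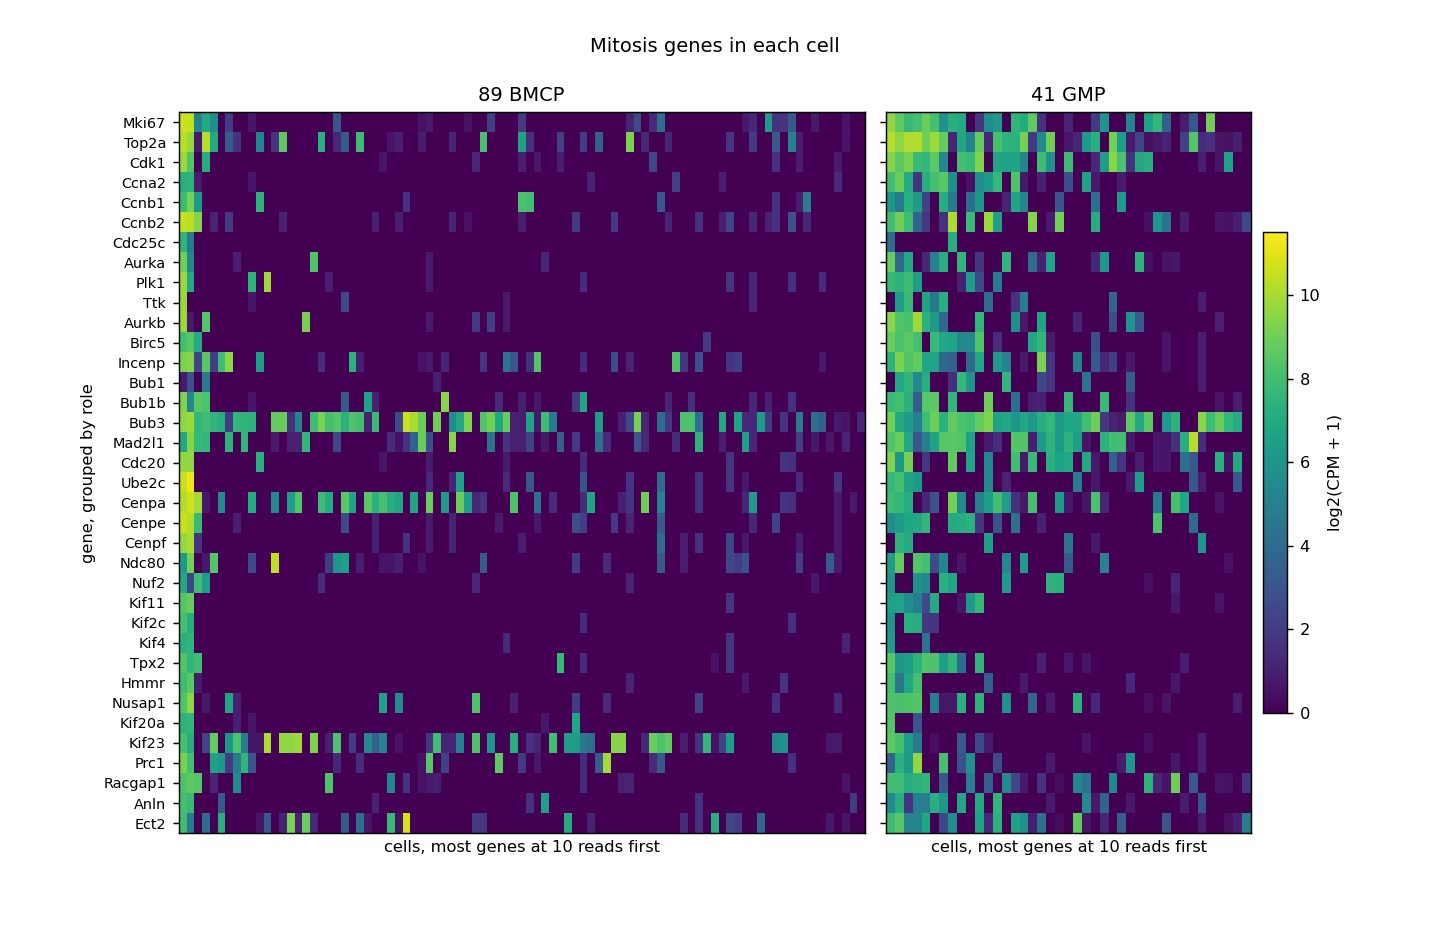
Each column is a cell, 89 BMCP at left and 41 GMP at right, ordered by the number of mitosis genes with 10 reads or more before thinning, each row is a gene in role order, and colour is log2(CPM + 1). BMCP replicates 44 and 29 stand at the far left with most rows filled, other BMCP are filled mainly in the rows of Bub3, Cenpa and Kif23, and the filled GMP columns are more numerous.

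BMCP replicate 44 carried 35 of the 36 genes and lacked Bub1, of which it held 1 read. Replicate 29 carried 29 and lacked Cdc25c, Aurka, Ttk, Aurkb, Bub1, Nuf2 and Ect2. The 7 mast cell and basophil genes summed to 7761 CPM in replicate 44 and 10806 CPM in replicate 29, both below the BMCP median of 16385 CPM. Replicate 29 had all 7 at 10 reads or more and replicate 44 had 5, with Cma1 and Mcpt8 at 0.749 CPM each. Among these genes were Gzmb, which encodes granzyme B, at 1501 and 2625 CPM, the carboxypeptidase gene Cpa3 at 1373 and 1856 CPM and the transcription factor gene Gata2 at 657 and 1031 CPM. The 5 neutrophil progenitor genes summed to 68.9 and 3.58 CPM in them, beside a BMCP median of 8.13 CPM. Replicate 44 held Ms4a3, a granulocyte progenitor gene, at 62.9 CPM, and Mpo, which encodes myeloperoxidase, was at 5.24 and 2.15 CPM. The part of these values in the mitosis gene levels was not tested. Their reads per spike-in read were 26.8 and 13.8, and 26.8 was the highest of any BMCP. Replicate 11, the BMCP with 12 genes, carried Ccnb1, Ccnb2, Cenpa, Cenpe and Tpx2 but not Top2a, Cdk1 or Ccna2. Of the lineage genes it had Cma1, the chymase gene of mast cells, at 27940 CPM and Mcpt8, the basophil protease gene, at 8128 CPM.

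The GMP with most mitosis genes were replicate 6 with 30, replicate 9 with 29, replicate 31 with 28, replicate 26 with 18 and replicate 16 with 16. All 5 held Mpo at 20043 to 33139 CPM. Replicate 31 also held Cpa3 at 2524 CPM, and replicate 6 held the monocyte and dendritic cell gene Irf8 at 687 CPM. GMP replicate 30, with 13 genes, differed in its lineage genes, with Gata2 at 2144 CPM, Cpa3 at 2699 CPM, Mpo at 1117 CPM and the elastase gene Elane at 6.72 CPM.

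The B cyclins and CDK1 drive entry into mitosis. Of the 5 members of this group 3 had a BMCP level at least 2-fold lower, against 21% of all genes. Cdk1, the kinase itself, ran from 0 through a median of 0 to 913 CPM across BMCP and from 0 through a median of 54.7 to 700.5 CPM across GMP. 3 of 86 BMCP against 22 of 40 GMP carried it, and 77 of 89 BMCP had no read of it. The summed levels were 22.4 and 157 CPM, a log2 ratio of -2.75, and the BMCP level was 2.55 CPM without replicates 44 and 29. Ccna2, cyclin A2, ran from 0 through a median of 0 to 169 CPM across BMCP, where the 2 cells held 98.2% of its reads, and to 477 CPM in GMP. It stood at 5.25 and 64.4 CPM (log2 -3.39), and at 0.0981 CPM in the other 87 BMCP.

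Ccnb2, cyclin B2, ran from 0 through a median of 0 to 1441 CPM in BMCP, with 1217 CPM in replicate 29 and 650 CPM in replicate 11. In GMP it ran from 0 through 0.439 to 1083 CPM, in replicate 18. Its sums were 53.2 and 149.5 CPM (log2 -1.47), and 10.5 CPM in BMCP without replicates 44 and 29, so the high BMCP were these 3 cells. Per kilobase of exon it was the highest member in GMP, at 97.7 CPM, where Cdk1 was at 31.9 and Ccnb1 at 4.95. Ccnb1, cyclin B1, lay at 23.3 CPM in BMCP against 20.9 CPM in GMP (log2 0.15), and at 10.3 CPM in the other 87 BMCP (log2 -0.95). It was found in 6 of the 86 thinned BMCP and 7 of the 40 GMP, with 586 CPM in BMCP replicate 29, 289 in replicate 25 and 266 in replicate 24. BMCP replicate 44 held 87.1% of the BMCP reads of Cdc25c, the phosphatase that activates CDK1, and replicate 29 the rest. GMP replicate 18 held 83.6% of the GMP reads, and the sums were 3.32 and 4.83 CPM (log2 -0.43). The 87 other BMCP had 0 reads of Cdc25c, which over a floor of 3 reads for all of them makes it at least 131-fold lower there than in GMP, whose level without replicate 18 was 0.815 CPM.

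Mki67 and Top2a mark chromosomes of dividing cells, as a coat of the mitotic chromosome and as the topoisomerase that untangles DNA. Both were at least 2-fold lower in BMCP, as were 21% of all genes. Mki67 ran from 0 through a median of 0 to 1582 CPM over the BMCP and from 0 through 7.68 to 805 CPM in GMP. After replicates 44 and 29, at 1582 and 1434 CPM, the next BMCP was replicate 62 at 128 CPM, while the upper quartile of GMP was 150.04 CPM. Both cells thus lay above all GMP, and no other BMCP reached the upper quartile of GMP. The sums were 53.3 and 119 CPM (log2 -1.14), and 4.53 CPM in the other 87 BMCP (log2 -4.44). Top2a ran from 0 through a median of 0 to 1237 CPM over the BMCP and from 0 through 34.96 to 1245 CPM in GMP, so the highest cells were alike. It stood at 73.6 and 248 CPM (log2 -1.74), and at 41.5 CPM without the 2 cells. BMCP replicate 62, with 1204 CPM, held 27.7% of its BMCP reads, and this cell is described with the S phase genes.

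The mitotic kinases other than CDK1 were sparse in both populations. Aurka, which matures the spindle poles, was at 11.6 CPM in BMCP against 47.9 CPM in GMP (log2 -1.96). It was at 2.56 CPM without BMCP replicates 44 and 29 and at 28.1 CPM without GMP replicate 6. Plk1, the Polo kinase, was at 31.8 and 27.4 CPM (log2 0.21), with 924 CPM in BMCP replicate 3 and 869 CPM in replicate 44. It was at 16.7 CPM in the BMCP other than 44 and 29, and was found in 4 of 86 BMCP against 5 of 40 GMP. Ttk, the checkpoint kinase MPS1, was a gene of 1 cell in BMCP, with 99.6% of its 1141 reads in replicate 44 and 0 reads in replicate 29. Its sums were 13.5 and 18.41 CPM (log2 -0.42), 0.0482 CPM without BMCP replicate 44 and 10.4 CPM without GMP replicate 9.

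The chromosomal passenger complex corrects faulty attachments and was represented by 3 genes. Of these 2 were at least 2-fold lower in BMCP, against 21% of all genes. Aurkb, its kinase, was at 21.3 CPM in BMCP against 71.8 CPM in GMP (log2 -1.70), or 7.53 CPM without BMCP replicate 44 and 39.9 CPM without GMP replicate 6. Among thinned cells 2 of 86 BMCP carried it, as did 9 of 40 GMP. Birc5, survivin, was at 12.1 and 72.6 CPM (log2 -2.49), ran to 360 CPM in BMCP against 451 CPM in GMP, and was at 2.10 CPM in the other 87 BMCP. Incenp, the scaffold, was at 47.0 and 58.2 CPM (log2 -0.30), or 27.3 CPM without the 2 cells (log2 -1.06). Its highest BMCP was replicate 43 at 707 CPM. Aurkb and Birc5 were detected together in 1 BMCP and in 7 GMP, beside 3 BMCP and 10 GMP with Birc5.

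The spindle checkpoint genes differed among themselves in BMCP. Bub1, a checkpoint kinase, was nearly without reads in BMCP, from 0 through a median of 0 to 24.6 CPM in replicate 62, and ran to 199 CPM in GMP. It was at 0.546 CPM in BMCP, 0.133 CPM without replicate 62, and at 25.4 CPM in GMP (log2 -4.09). No BMCP had 10 thinned reads of it, which at 86 cells allows a share of up to 3.49%, and 6 of 40 GMP did. Replicates 44 and 29 held 1 and 9 reads, so the BMCP that carried most other members were low for this gene. Bub1 was not detected either in GMP replicates 6 and 26, which carried 30 and 18 members. GMP replicates 9, 31 and 16 did carry it. Bub1b, BUBR1, was at 31.1 and 71.4 CPM (log2 -1.17), with 680 CPM in BMCP replicate 39 and 656 CPM in replicate 44, and at 20.8 CPM without replicates 44 and 29. Mad2l1, MAD2, was at 45.4 and 117 CPM (log2 -1.35) and was found in 10 of 86 BMCP against 18 of 40 GMP.

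Bub3, the partner that brings BUB1 and BUBR1 to kinetochores, was the most widely detected member in both populations. It ran from 0 through a median of 16.4 to 1525 CPM across BMCP and from 0 through 135 to 703 CPM across GMP. Detection reached 37 of 86 BMCP (43.02%, 32.4 to 54.2) and 33 of 40 GMP (82.5%, 67.2 to 92.7), and 25 BMCP and 4 GMP had no read. The sums were 165 and 235 CPM (log2 -0.51), and 142 CPM without replicates 44 and 29. Of the 37 BMCP with Bub3, 4 had Bub1b and 0 had Bub1, while of the 33 GMP with Bub3, 8 had Bub1b and 6 had Bub1.

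Cdc20 and Ube2c act at anaphase, as the activator and the ubiquitin-conjugating enzyme of the anaphase promoting complex. Cdc20 ran from 0 through a median of 0 to 785 CPM over the BMCP and from 0 through 0.724 to 635 CPM in GMP. It was at 28.1 and 103 CPM (log2 -1.83), and at 3.12 CPM without replicates 44 and 29. Ube2c was 1 of the 3 members at least 2-fold higher in BMCP, and that level rested on the 2 cells. Replicates 29 and 44 held 2385 and 1484 CPM, 99.4% of its BMCP reads, while the highest GMP, replicate 31, held 279 CPM. Its sums were 63.5 and 23.8 CPM (log2 1.38), against 0.417 CPM in the other 87 BMCP (log2 -4.13), or 15.1 CPM in GMP without replicate 6. 2 of 86 BMCP against 5 of 40 GMP carried it.

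The centromere and kinetochore genes split into those of the 2 cells and those of others. Cenpe, the kinetochore motor CENP-E, was at 46.6 CPM in BMCP against 35.5 CPM in GMP (log2 0.38), and at 3.59 CPM without replicates 44 and 29 (log2 -2.99), which held 1508 and 1160 CPM. Cenpf, a kinetochore protein of G2 and mitosis, was at 30.5 and 13.4 CPM (log2 1.13), and at 0.209 CPM without them (log2 -3.57), or 8.44 CPM in GMP without replicate 9. Ndc80 and Nuf2 encode partners in the complex that binds microtubules. Of 86 BMCP 6 had Ndc80, 3 had Nuf2 and 1 had both, and of 40 GMP these were 6, 8 and 4. BMCP replicate 69, with 1356 CPM, held 56.9% of the BMCP reads of Ndc80, which was at 35.9 and 24.4 CPM (log2 0.54), 15.7 CPM without that cell, and 15.05 CPM in GMP without replicate 31. BMCP replicate 11 held 51.7% of the BMCP reads of Nuf2, which was at 7.13 and 27.3 CPM (log2 -1.80), 3.50 CPM without that cell, and 17.9 CPM in GMP without replicate 46.

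Cenpa, the histone H3 variant of the centromere, was carried by many BMCP. It ran from 0 through a median of 0 to 1652 CPM across BMCP and from 0 through 0.656 to 545 CPM across GMP. Detection reached 24 of 86 BMCP (27.9%, 18.8 to 38.6) and 13 of 40 GMP (32.5%, 18.6 to 49.1), shares with overlapping limits. The sums were 118 and 72.9 CPM (log2 0.68), and 74.4 CPM without replicates 44 and 29 (log2 0.03). Of the 24 BMCP with Cenpa, 3 had Mki67, which was detected in 6 of all 86 BMCP.

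Without replicates 44 and 29 all 6 spindle genes had a BMCP level at least 2-fold lower, against 21.6% of all genes. The 2 cells were picked for the highest sums of the mitosis genes, so that count follows in part from the choice. With them 2 of the 6 were lower, against 21% of all genes, and nothing is read from this count. Kif11, the motor that pushes the poles apart, had 1103 reads in BMCP, of which all but 1 lay in replicates 29 and 44, at 450 and 354 CPM. It was at 13.1 and 19.6 CPM (log2 -0.55), and with 1 read in the other 87 BMCP it was 1596-fold (286 to 63088) lower there than in GMP. Kif2c, which takes microtubules apart at their ends, was at 6.78 and 10.4 CPM (log2 -0.55), or 4.35 CPM without GMP replicate 9. With 2 reads in those 87 cells it was 424-fold (117 to 3512) lower there than in GMP. The folds of Kif11 and Kif2c leave out the 2 highest BMCP and keep all GMP, so their size follows in part from the choice. Their limits cover counting error only. Kif4, a chromosome-bound motor, was at 5.67 and 3.71 CPM (log2 0.50), with 98.95% of its BMCP reads in the 2 cells and 92.7% of its GMP reads in replicate 6, without which it was at 0.283 CPM.

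Tpx2, which activates Aurora A on the spindle, was at 15.1 and 51.3 CPM (log2 -1.70), and at 6.81 CPM without the 2 cells. Hmmr, a spindle pole protein, was at 10.1 and 20.1 CPM (log2 -0.92), with 99.5% of its BMCP reads in replicates 29 and 44 and 61.8% of its GMP reads in replicate 6, without which it was at 8.05 CPM. Nusap1, which bundles spindle microtubules, was at 23.8 and 48.8 CPM (log2 -1.01), and at 6.86 CPM without the 2 cells. In GMP as well, a single cell held over 50% of the reads of Kif2c, Kif4 and Hmmr.

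Of the 6 central spindle and cytokinesis genes, Kif20a, Racgap1 and Anln were at least 2-fold lower in BMCP, against 21% of all genes. Kif23 was at least 2-fold higher, against 25.8%. Kif20a, the motor that carries the passenger complex to the midzone, had 99.7% of its GMP reads in replicate 6. It was at 6.32 and 15.5 CPM (log2 -1.18), and at 0.0567 CPM in GMP without that cell, which turned the direction, with a log2 ratio of 2.003 when the highest cell of each population was left out. It was found in 3 of the 86 thinned BMCP and 1 of the 40 GMP. Racgap1, the partner of KIF23 in centralspindlin, was at 21.9 and 53.5 CPM (log2 -1.25), and at 10.9 CPM without replicates 44 and 29. Anln, the anillin of the cleavage furrow, was at 9.72 and 23.3 CPM (log2 -1.18), and at 1.93 CPM without them. Prc1, which bundles the midzone, was at 37.5 and 25.3 CPM (log2 0.55), or 24.7 CPM without them (log2 -0.04). Ect2, the exchange factor that starts the furrow, was at 34.7 and 35.2 CPM (log2 -0.02), with BMCP replicate 5 highest at 1765 CPM.

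Kif23, the motor subunit of centralspindlin (chr9:61915905-61946774, GRCm38), was the 1 member at least 2-fold higher in BMCP both with and without replicates 44 and 29. Ndc80 and Cenpa also lay above 0 without them, at log2 0.11 and 0.03. It ran from 0 through a median of 0.982 to 1065 CPM across BMCP, with an upper quartile of 81.9 CPM, and from 0 through 0 to 393 CPM across GMP, with an upper quartile of 0.385 CPM. Replicates 3, 66 and 54 were the highest BMCP, at 1065, 911 and 792 CPM, while replicates 44 and 29 held 274 and 142 CPM. Detection reached 25 of 86 BMCP (29.1%, 19.8 to 39.9) and 3 of 40 GMP (7.5%, 1.57 to 20.4). The sums were 96.5 CPM (94.4 to 98.7) and 29.03 CPM (27.6 to 30.5), a log2 ratio of 1.70, and 1.64 without replicates 44 and 29. GMP replicate 6 held 63.6% of the GMP reads, and the GMP level without it was 11.1 CPM. Against the same GMP, its ratio was 2.30 in the cells numbered 1 to 47 and 1.16 in those numbered 48 to 94.

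The 3 GMP with Kif23, replicates 6, 9 and 31, all had Racgap1, Ect2, Cenpa, Bub3 and Mki67, and 2 had Prc1. Over all 40 GMP, 7 had Racgap1, 8 had Ect2, 13 had Cenpa, 33 had Bub3, 17 had Mki67 and 5 had Prc1. Of the 25 BMCP with Kif23, 2 had Racgap1, 3 had Ect2, 3 had Prc1, 5 had Cenpa, 9 had Bub3 and 3 had Mki67. Over all 86 BMCP these were 4, 7, 8, 24, 37 and 6.

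Bub3, Kif23 and Cenpa made up most of what the other BMCP carried. Over the 84 thinned BMCP other than replicates 44 and 29 there were 154 detections of a mitosis gene, 80 of them (51.9%) of these 3 genes, with 35 for Bub3, 23 for Kif23 and 22 for Cenpa. In the 40 GMP they made up 49 of 313 detections (15.7%). The 3 genes were picked as the most detected in these BMCP, so a larger share there follows from the choice and nothing is read from it. None of the remaining 33 members was detected in 38 of the 84 BMCP (45.2%) and in 3 of the 40 GMP (7.5%). The 33 genes and the 84 cells were both picked from these same counts, so this gap too follows in part from the choice. Ccna2, Cdc25c, Ttk, Bub1, Ube2c, Cenpf, Kif11, Kif2c, Kif4 and Hmmr were detected in 0 of the 84 BMCP. The 2 BMCP left out had the highest mitosis gene sums, so these zeros follow in part from the choice and bound no share. Over all 86 BMCP, Bub1 was detected in 0 cells, Cdc25c and Ttk in 1 each, and the others of these genes in 2 each.

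**Figure D4:**
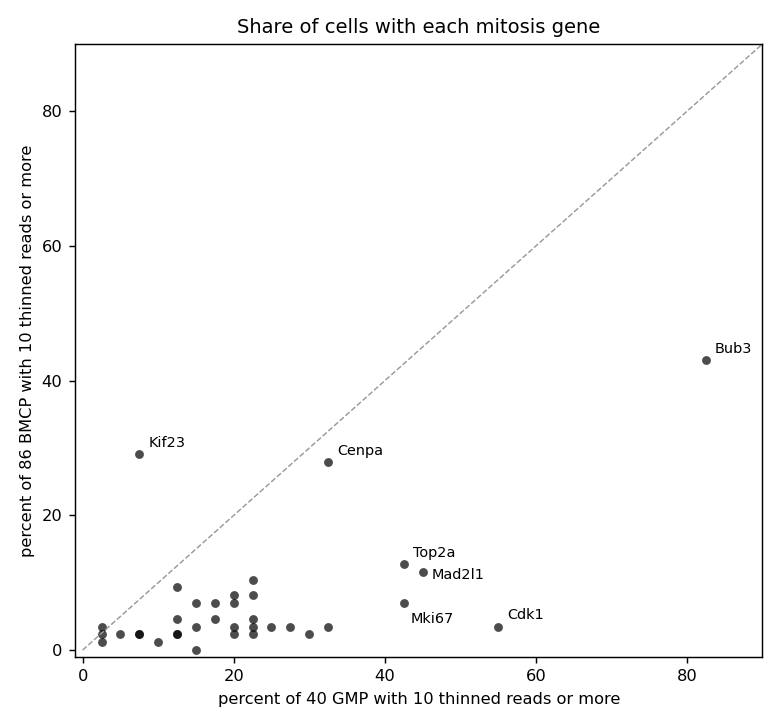
The x axis is the percent of 40 GMP and the y axis the percent of 86 BMCP with 10 thinned reads or more of a gene, with a point for each of the 36 mitosis genes and a dashed line where the shares are equal. Kif23 lies above the line at 29.1% of BMCP and 7.5% of GMP, Cenpa lies near it at 27.9% and 32.5%, and Cdk1 lies far below it at 3.49% and 55%.

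The members moved together across cells to different degrees. In each cell, log2(CPM + 1) of a member was set against the mean over the other 35. Across the 41 GMP Pearson's r ran from 0.22 for Bub3 to 0.83 for Kif23, with a median of 0.58. Across the 89 BMCP the median was 0.69, and without replicates 44 and 29 it was 0.087 over the 35 members with reads. Kif23 had an r of -0.12 across the 87 other BMCP and Nuf2 the highest, 0.72. Among those BMCP, Nuf2 was at 242 CPM in replicate 11 and 82.8 CPM in replicate 62, and at most 1.81 CPM elsewhere. Kif23 in turn was detected in 3 of 40 GMP. These values describe cells that were not replicates and differed in depth. In such sparse counts a weak r is no finding, and a strong r can rest on a few cells.

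The S phase genes, a list of 18 genes of DNA replication, were set beside the mitosis genes in each cell. In GMP the S genes were detected widely, and all 9 GMP with at least 12 mitosis genes also had at least 6 of the 18. A further 28 of 40 GMP had at least 6 S genes with fewer than 12 mitosis genes, and 3 had neither. In BMCP none of the 3 cells with at least 12 mitosis genes had 6 S genes, and 10 of 86 had at least 6 S genes with fewer than 12 mitosis genes. With 0 of 86 BMCP in both classes, a share of up to 3.49% is allowed.

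BMCP replicates 44 and 29 had 4 of the 18 S genes each, with summed levels of 595 and 792 CPM, beside 3338, 3198 and 5119 CPM in GMP replicates 6, 9 and 31. The median was 807 CPM in BMCP against 4373 CPM in GMP, so the S level of the 2 cells lay near that of other BMCP. BMCP replicate 62 was the reverse, with all 18 S genes at 8844 CPM, the highest BMCP, and 9 mitosis genes, among them Mki67, Top2a, Cdk1, Aurkb and Incenp but none of the cyclins. Across the 41 GMP the summed levels of the lists had a Pearson r of 0.48 and a Spearman rho of 0.26, and across the 89 BMCP they had -0.039 and -0.041. The summed mitosis level had an r of 0.052 with total reads across GMP and -0.043 across BMCP. With the number of genes with a read, r was 0.40 across GMP and 0.14 across BMCP. With reads per spike-in read, r was 0.19 across GMP and 0.28 across BMCP.

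**Figure D5:**
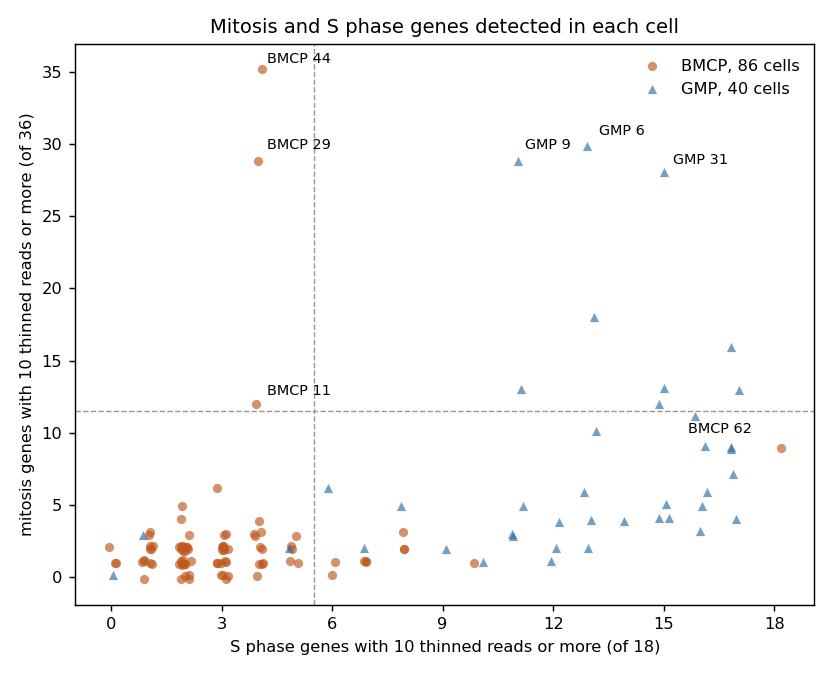
The x axis is the number of 18 S phase genes and the y axis the number of 36 mitosis genes with 10 thinned reads or more, with circles for 86 BMCP, triangles for 40 GMP, a small random shift to part equal values, and dashed lines below 12 mitosis and 6 S phase genes. BMCP 44, 29 and 11 lie at the upper left with 4 S phase genes each, and the GMP with most mitosis genes lie at the upper right.

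Other lists of cell cycle genes were read the same way, against the same 21% of all genes lower and 25.8% higher, or 21.6% and 25.9% without BMCP replicates 44 and 29. The 45 further mitosis genes had a median log2 ratio of -0.66, with 16 at least 2-fold lower and 5 at least 2-fold higher in BMCP, and -1.64, 30 and 2 without replicates 44 and 29. Melk, a kinase of dividing cells, was at 0.38 CPM in BMCP, all in replicate 29, and 27.5 CPM in GMP. Espl1, separase, which cuts cohesin, was at 0.867 and 23.8 CPM, or 0.0491 CPM without the 2 cells. Pttg1, securin, which holds separase back, was higher in BMCP, at 74.7 and 22.6 CPM (log2 1.68), was found in 22 of 86 BMCP against 9 of 40 GMP, and was at 71.8 CPM without the 2 cells. Dsn1, a kinetochore protein, was at 60.2 and 16.5 CPM (log2 1.81), and at 59.6 CPM without them.

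The 18 S phase genes had a median of -2.20, with 16 lower (21% of all genes) and 0 higher (25.8%), and -2.16 without replicates 44 and 29. Rrm2, a ribonucleotide reductase subunit, was at 13.9 and 188 CPM, and without BMCP replicate 62 at 1.47 CPM. Uhrf1, which maintains DNA methylation, was at 10.96 and 163 CPM, and without that cell at 3.65 CPM. The 13 condensin and cohesin genes had a median of -0.62, with 5 lower (21%) and 0 higher (25.8%). Ncapg and Ncapg2 of the condensins were the lowest by the rule, at 7.59 and 43.6 CPM and at 8.17 and 58.5 CPM. Ncapg was at 0.0736 CPM without BMCP replicates 44 and 29, and Ncapg2 was at 2.80 CPM without replicate 62.

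The 16 genes of the anaphase promoting complex had a median of -0.14, with 3 lower and 1 higher. With 21% of all genes lower and 25.8% higher, these counts are no result about the list, and its genes are given as values. The subunit genes Cdc16 and Anapc13 were lower in BMCP, at 32.1 and 189 CPM and at 10.2 and 33.1 CPM. Fzr1, the activator CDH1, which works from the end of mitosis through G1, was higher, at 243 and 59.9 CPM, or 201 CPM without replicates 44 and 29, and was found in 28 of 86 BMCP against 9 of 40 GMP. The subunit gene Anapc4 was at 114 and 56.6 CPM (log2 0.99).

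The 23 regulators of mitotic genes and entry had a median of -0.77, with 11 lower (21%) and 3 higher (25.8%), and -1.37, 12 and 3 without replicates 44 and 29. Mybl2, which encodes the B-MYB that partners the MuvB complex, had 2 reads in all BMCP and was at 48.6 CPM in GMP, 2048-fold higher (566 to 16923). It was detected in 10 of 40 GMP, and neither BMCP replicate 44 nor 29 held a read. E2f2 had 1 read in BMCP and was at 20.6 CPM in GMP, 1739-fold higher (311 to 68740), and 13.4 CPM without GMP replicate 30. Rbl2, which encodes the p130 of the DREAM complex, was higher in BMCP, at 187 and 39.03 CPM (log2 2.23), and was found in 40 of 86 BMCP against 9 of 40 GMP. Cdkn1b, the inhibitor p27, was at 48.5 and 4.86 CPM (log2 3.08), with 325 CPM in BMCP replicate 44 and 80.8 CPM in replicate 29.

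Counts of some members are uncertain where their exons overlap those of a neighbour, since the protocol does not mark strand. Whether reads in shared exons were counted for a member or left out as ambiguous was not tested. Exons shared with a gene on the other strand made up 29.3% of the exon bases of Kif20a (Cdc23), 22.8% of Ube2c (Tnnc2), 15.1% of Kif4 (Pdzd11), 12.7% of Cdc25c (Gm3550), 12.5% of Ccna2 (Exosc9) and 11.1% of Prc1 (Rccd1). Tnnc2 had 4 reads in BMCP and 0 in GMP, while Cdc23 had 4293 and 5021. Annotated copies of Ccnb1 and Ccnb2 had 157 and 757 reads in BMCP and 49 and 729 in GMP, so the counts of these cyclins are uncertain to that extent.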

How the data were processed

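Single cells were sequenced from polyA RNA with spike-in RNA and without molecular identifiers, so reads of a gene are not independent molecules and intervals cover counting error only. The authors deposited whole-number counts of reads per gene and cell. GSNAP, HTSeq 0.5.3p3 and the mm10 build are named per the submitters' processing notes, with no annotation release among them. Of 141 cells, those with at least 50000 nuclear-encoded counts, 1000 genes, at most 10% mitochondrial and at most 50% spike-in counts were kept, which left out 5 BMCP and 6 GMP. No doublet caller was run, and 0 cells had identical counts. Unassigned reads stayed out of totals (15.3% no feature, 4.57% ambiguous and 29.4% not aligned, of all reads of kept cells). Symbols came from GENCODE and matched 45143 of 46078 rows.

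Counts were summed per population and set to CPM, and log2 ratios used a pseudocount of 1 CPM over genes with at least 1 CPM in either population. On simulated data with 46041 genes, 50 genes raised 8-fold gave a median log2 ratio of 2.95 and 50 raised 2-fold gave 0.95. Those lowered 2-fold gave -0.999 and those lowered 8-fold gave -2.88, and 50 of 50 had the right direction in each. The simulated cells of a population shared a single expression profile with counting error only. This checks the computation and cannot show the direction of ratios that rest on single cells. All 36 members were named, and from each other list the 2 genes with the largest ratio in each direction at 20 CPM or more in the higher population. Cells were named where they held 50% or more of a member's reads or were among the 5 with most members, and others were named after their values were seen. The members and lists were chosen with earlier results of these data known. Scripts ran under Python 3.11.15 with pandas 2.3.3, scipy 1.17.1, matplotlib 3.10.9 and numpy 2.4.6. Alternatives were other pseudocounts, filters, thinning depths and detection limits, spike-in scaling, and leaving out cells.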

Additional observations from a re-analysis of the deposited data

Results flagged for a closer look

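The cells that the filter left out also held reads of the mitosis genes, and these reads entered only the alternative with no cell filter. GMP replicate 23 held 1536 reads with 13 of the 36 genes at 10 reads or more, and it was left out for a mitochondrial share of 10.1%. GMP replicate 13 held 879 reads with 6 genes, GMP replicate 22 held 488 reads with 3 genes and GMP replicate 41 held 125 reads with 1 gene. Of the BMCP, replicate 21 held 674 reads and replicate 81 held 24 reads, with 1 gene each at 10 reads or more.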

How the results depend on the processing

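Each population was a single sample, so every value rests on which cells it holds. Leaving out 1 cell at a time (130 settings) moved the median log2 ratio of the mitosis genes between -1.65, without BMCP replicate 44, and -0.45, without GMP replicate 6, the genes at least 2-fold lower between 13 and 23, and those at least 2-fold higher between 1 and 5. The summed level moved between 910 and 1252 CPM in BMCP and between 1752 and 2224 CPM in GMP. Below, a gene is said to turn only where its ratio over all kept cells was at least 2-fold and its sign changed. Smaller ratios changed sign as well. Of all 36 members, 29 kept their sign without BMCP replicates 29 and 44. For numbers 1 to 47, 25 did, and for numbers 48 to 94, 29 did. With 29 and 44 taken out of numbers 1 to 47, 30 did, and without 2 BMCP and 2 GMP, 29 did. Without BMCP replicates 29 and 44 the median was -2.87, 28 genes were lower and 1 was higher, the BMCP sum was 612 CPM, the further mitosis list had a median of -1.64, and Ube2c (-4.13) and Cenpf (-3.57) turned. For BMCP numbers 1 to 47 the median was 0.17, 6 genes were lower and 9 higher, the sum was 2354 CPM, the further mitosis list had a median of 0.054, and Mki67 (0.18), Nusap1 (0.15), Kif20a (0.10) and Racgap1 (0.054) turned. For numbers 48 to 94 the median was -3.38, 29 genes were lower and 1 was higher, the sum was 542 CPM, the further mitosis list had a median of -2.42 and the regulators -2.18, and Ube2c (-4.07) and Cenpf (-3.60) turned. The next alternatives were chosen after seeing the data. For numbers 1 to 47 less 29 and 44 the median was -2.57, 1 gene was higher, the sum was 739 CPM, the further mitosis list had a median of -1.81, and Ube2c (-4.24) and Cenpf (-3.54) turned. Without 2 BMCP and the 2 GMP with the most CPM of members (replicates 6 and 31), the median was -2.32, the sums were 612 and 1598 CPM, the further mitosis list had a median of -1.30, and Ube2c (-2.74), Cenpf (-3.18) and Kif20a (0.49) turned.

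Spike-in scaling gave a median of -1.83 with 0 genes higher, -1.53 for the further mitosis list and -1.01 for the anaphase promoting complex, and by its construction moved all genes by -0.87. The sums were 1033 and 1964 CPM as means of the cells' CPM, 1217 and 2127 CPM with no cell filter, and 802 and 1638 CPM without the highest cell of each gene, where Kif20a turned to 2.003. With the limit at 6 genes in place of 12, 45% of GMP passed it, and at 18 genes 10% did. The median percent of GMP with a gene was 20 at 10 thinned reads, 26.2 at 2 reads and 24.4 without thinning. Other than by leaving out the cells named, the cause was not tested. The S phase and the condensin and cohesin medians stayed on their side in 8 alternatives each. No paired analysis was possible because the cell numbers in the labels name cells and each population is 1 sample. Genes at a few reads per cell cannot be told from absent ones at this depth.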

Other observations

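Outside all lists, the genes most like the mitosis genes across the 41 GMP were found by the Pearson r of log2(CPM + 1) with the mean over the members, among 6115 genes whose median r was 0.093. The cells were not replicates, so these values are descriptions. The highest were Pclaf, a PCNA-bound factor (r 0.69), Hmgb2, a chromatin protein (0.69), Asf1b, a histone chaperone (0.66), Gm11223 (0.65), Tubb5, a beta tubulin (0.64), Cdca5, the sororin of cohesion (0.61), Tuba1b, an alpha tubulin (0.60), Prr5 (0.59), Dgcr8 (0.59) and Hibch (0.59).

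In the BMCP with most mitosis genes these genes differed in level. Tubb5 was at 3856 CPM in BMCP replicate 44 and 3220 CPM in replicate 29, beside 1125 CPM over the other 87 BMCP. Hmgb2 was at 222 and 476 CPM, beside 33.3 CPM. Cdca5 was at 0.749 and 0 CPM in the same cells, and Prr5, Dgcr8 and Hibch were at 0 CPM in both. Cdca5 was at 3.47 CPM over all BMCP and 82.6 CPM in GMP.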
